A study of Bos taurus with 46 samples.

Results

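Heat shock and chaperone genes were followed in the circulating leukocytes of pregnant heifers, as 10 members chosen by gene symbol: *HSPA1A*, *HSPA5*, *HSPA8*, *HSP90AA1*, *HSP90AB1*, *HSPH1*, *HSPD1*, *HSPE1*, *DNAJB1* and *HSPB1*. All 10 were found among the 30675 genes of the NCBI count table, and all 10 passed the filter on low counts in every comparison. RNA was sequenced from white blood cells of 23 Angus crossbred heifers at 2 times of gestation, day 55 (D55) and day 105 (D105), which gave 46 libraries. Each heifer had a single library at each time, so p-values measure the spread between heifers. The heifers carried fetuses conceived by artificial insemination (AI, the control, n = 8), fetuses from in vitro produced embryos below the study's weight threshold for overgrowth (IVP-Normal, n = 6), or in vitro produced fetuses with large offspring syndrome, an overgrowth condition (IVP-LOS, n = 9). All heifers had their estrus synchronized with progesterone inserts and prostaglandin, and in vitro embryos were sired by a Brahman bull and transferred in pairs. The groups therefore describe the fetus carried, not a treatment of the blood. By the study's text, the AI heifers carried a single fetus each, while some heifers of both IVP groups carried 2. Number of fetuses and conception thus cannot be fully told apart in comparisons with AI. Heifers 604 (with 2 fetuses) and 664, of the IVP-LOS group, carried the heaviest fetuses and are compared as a pair. That pair is set by the study's text and the heifer numbers in the sample titles, not by a label of its own.

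Chaperones are proteins that help other proteins fold and keep them from clumping. In the cytosol, HSP70 proteins bind unfolded stretches, HSP40 proteins such as DNAJB1 bring them their clients, nucleotide exchange factors such as HSPH1 release them, and HSP90 finishes the folding of many kinases and receptors. The endoplasmic reticulum and the mitochondria have their own sets. Heat and other protein-damaging stress activate the transcription factor HSF1, which induces *HSPA1A*, *HSPH1*, *DNAJB1* and others within minutes to hours, whereas *HSPA8* and *HSP90AB1* are expressed at all times. *HSPA5* answers mainly to the unfolded protein response of the endoplasmic reticulum.

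The libraries held from 18692653 to 24502012 reads on genes. Levels are given as CPM, read counts scaled to a common library size with TMM factors over the 46 libraries, and they compare libraries for 1 gene, not genes with each other, because they are not divided by transcript length. Markers of T cells, B cells, NK cells, neutrophils and monocytes were detected in every library. In bulk samples, fewer cells of a type and less RNA per cell cannot be told apart. In the sample labels, AI and IVP-LOS libraries of D105 carry the set name BACKUP, and the remaining libraries carry the name New. Day and set therefore cannot be told apart in those groups, and on D105 neither can set and the difference of IVP-Normal from the others. The study's text also places the D55 and D105 collections in different seasons, so day and season cannot be told apart in any group. *HSPA1A* has a near-identical copy in the genome, *HSPA1B*, which has no row of its own in the table, so reads of the *HSPA1A* row may come from either.

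On D55, *HSPA1A*, the strongly inducible cytosolic HSP70, ranged from 67.9 to 144 CPM over the 23 heifers with a median of 93.4. *HSPH1*, its exchange factor, ranged from 34.4 to 138 CPM with a median of 64.0 and had the widest relative spread, a coefficient of variation of 31.6%. *HSPE1*, the mitochondrial co-chaperonin, had the narrowest, at 11.7%, beside a median of 16.9% over the genes with a mean of at least 1 CPM. Heifer 628 of the IVP-Normal group was the highest of the 23 in 6 of the 10 members, beside 5.95% of the genes with that mean. The members share a library, so these are not 6 separate events. They included *HSPA8* at 2432 CPM (median 1524), *HSPA1A* at 144 CPM and *HSPH1* at 138 CPM. The D105 library of heifer 628 was not high, with *HSPA8* at 1393 CPM and *HSPH1* at 53.7 CPM.

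The other members lay closer together on D55. *HSP90AA1*, the inducible cytosolic HSP90, ranged from 432 to 745 CPM (median 510) and *HSP90AB1*, its constitutive partner, from 631 to 1141 CPM (median 729). *HSPB1*, a small heat shock protein, ranged from 180 to 344 CPM (median 257), and *DNAJB1* from 68.5 to 122.4 CPM (median 76.8). The mitochondrial *HSPD1* ranged from 73.8 to 132 CPM (median 98.6) and *HSPE1* from 37.4 to 60.6 CPM (median 45.1). *HSPA5* ranged from 193 to 338 CPM (median 231), with heifer 637 highest on this day and on D105. On D105, leaving out the library described next, relative spread was larger than on D55 in 9 of the 10 members, with *HSPH1* at 41.5% and *HSPA1A* at 36.9%, beside 20.9% as the median over genes.

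**Figure D1:**
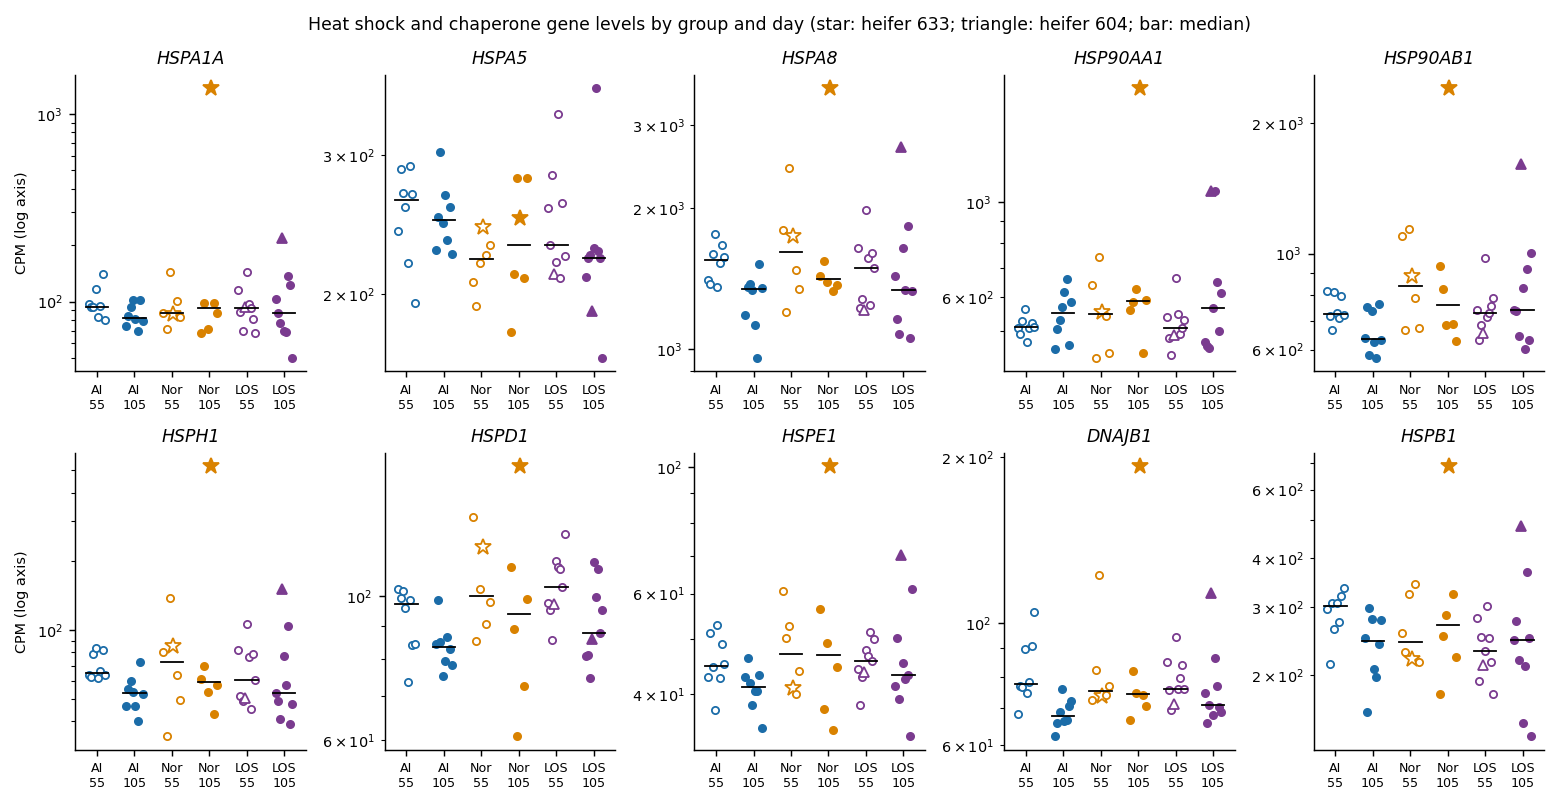
CPM on a log axis of each member in each library, by group and day (AI, Nor for IVP-Normal and LOS for IVP-LOS, with open symbols for D55 and filled symbols for D105). The D105 star of heifer 633 lies above all other points in every panel except *HSPA5*, and the D105 triangle of heifer 604 is next in most panels.

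The D105 library of heifer 633, of the IVP-Normal group, stood apart. It held 1375 CPM of *HSPA1A*, where the other 22 D105 libraries ranged from 50.1 to 218 CPM and the same heifer had 85.7 CPM on D55. That was 16.1 times the median of the other 22. *HSPH1* was at 521 CPM in this library against 39.0 to 152 CPM in the others, 9.70 times their median. This library was at more than 2 times the median of the other 22 in 8 of the 10 members, beside 3.23% of the genes with a mean of at least 1 CPM. It was above all the other 22 libraries in 9 of the 10 members, beside 5.59% of those genes. The remaining member, *HSPA5*, was highest in heifer 637.

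The remaining cytosolic members were higher by smaller factors in this library. *HSPA8*, the constitutive HSP70, was at 3597 CPM, 2.66 times the median of the other libraries. *HSP90AA1* was at 1842 CPM (3.25 times), and *HSP90AB1* was at 2410 CPM (3.39 times). *DNAJB1*, the inducible HSP40, was at 193 CPM (2.73 times), and *HSPB1* was at 688 CPM (2.78 times). Among the mitochondrial chaperonins, *HSPE1* was at 100.4 CPM (2.36 times) and *HSPD1* at 158 CPM (1.86 times). *HSPA5*, the HSP70 of the endoplasmic reticulum, was at 250 CPM, inside the range of 166 to 365 CPM of the others and 1.10 times their median.

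The other genes of the folding machinery were described from 5 lists. Of 13857 genes with a mean of at least 1 CPM, this library was above the other 22 in 775 genes (5.59%), and its median ratio to their median was 0.997 over all these genes. It was above all others in 11 of 14 HSP90 co-chaperones (median 1.97 times), in 9 of 14 genes of the TRiC/CCT ring and prefoldin (1.58 times), and in 11 of 29 genes of the HSP70 and HSP40 system (1.36 times). It was so in only 1 of 23 genes of endoplasmic reticulum chaperones and the unfolded protein response (1.02 times) and in 1 of 12 mitochondrial chaperones and proteases (1.15 times). *HSPA6*, an inducible HSP70 that is nearly silent without stress, was at 33.9 CPM against 0.221 to 4.01 CPM. The co-chaperones *FKBP4* (299 CPM, 6.05 times) and *STIP1*, which joins HSP70 to HSP90 (342 CPM, 3.63 times), were also far above the others. These genes were named after their values were seen.

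When the genes with at least 10 CPM in this library were ordered by their ratio to the highest of the other 22, *HSPA6* was first (8.45 times) and *HSPA1A* the next (6.29 times). *ZFAND2A*, a stress-induced zinc finger gene, followed at 4.41 times and *HSPH1* at 3.43 times. Of the leading 15 genes, 3 were members, 6 were on a pathway list and 6 were on neither. The heat shock factor itself, *HSF1*, was at 74.8 CPM, against 49.0 to 73.2 CPM in the others. In this library 27.7% of the reads on genes or between them lay on no gene, near the median of 28.2% over all D105 libraries, and its summed neutrophil markers (2634 CPM) and immediate early genes (2801 CPM) lay inside the ranges of the others. Its summed monocyte markers (548 CPM) were the lowest of the IVP-Normal group, whose median was 1736 CPM. What set this library apart was not tested, and it is 1 library with no repeat.

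**Figure D2:**
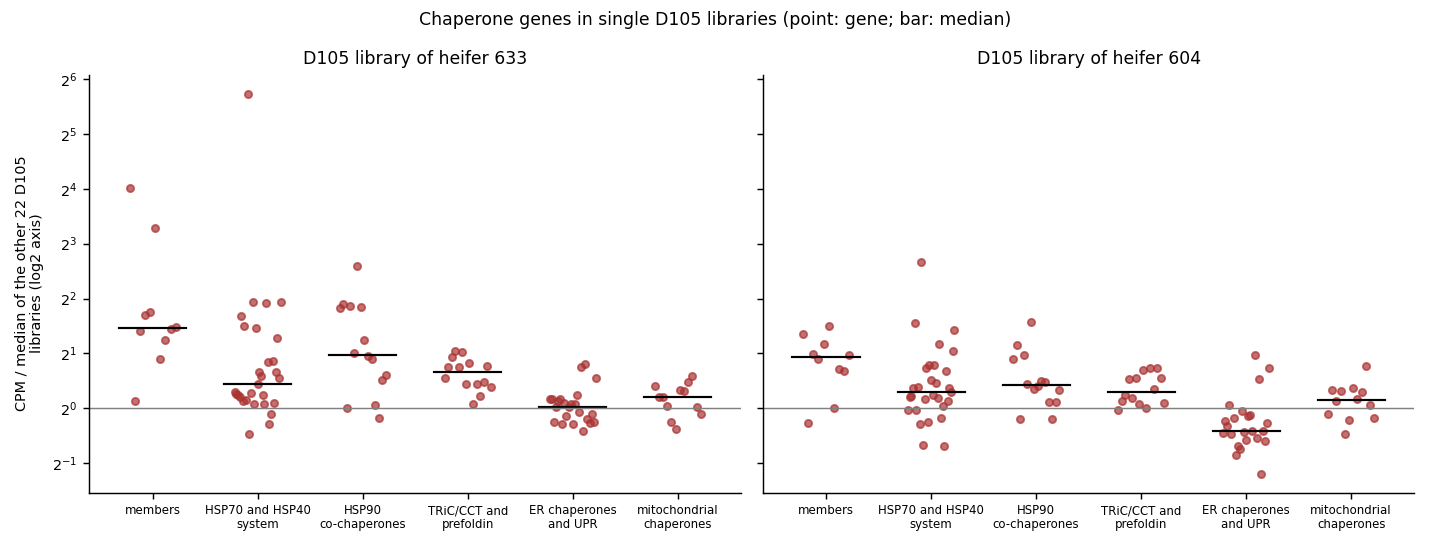
Ratio of each gene's CPM to the median of the other 22 D105 libraries (log2 axis), for the D105 libraries of heifers 633 and 604, with genes grouped by list and bars at the list medians. In heifer 633 the members have a median of 2.75 and *HSPA6* is the top point at 53.3, while the endoplasmic reticulum list has its median at 1.02.

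Heifer 604 came next. With heifer 633 left out, its D105 library was the highest of the 22 in 8 of the 10 members. The share of all genes on that count was not computed. *HSPA1A* was at 218 CPM, *HSPA8* at 2693 CPM, *HSP90AB1* at 1613 CPM and *HSPH1* at 152 CPM. In *HSP90AA1*, 1 of the 8, heifer 637 was level with it, both at 1060 CPM. The members had a median of 1.91 times the other libraries, beside 1.01 over all 13857 genes. *HSPD1* (85.7 CPM, 0.999 times) and *HSPA5* (190 CPM, 0.833 times) were not high. With heifer 633 included, the D105 library of heifer 604 was above all others in 0 members and in 1748 genes (12.6%). The D105 library of heifer 633 was so in 5.59% of genes. The library of heifer 604 differed in other ways too. It had 38.6% of its reads on no gene, the highest share, and 2621 CPM of platelet markers where the libraries other than those of 604 and 664 reached at most 725 CPM. On D55 the same heifer was ordinary, with *HSPA1A* at 93.4 CPM and *HSPH1* at 50.5 CPM.

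The comparison of D105 with D55 asked how gene expression in the dams' leukocytes changed over gestation. In the AI group, *HSPH1* and *DNAJB1* fell, and they were the only members called (2 of 10). Over all genes tested in this comparison 9.95% were called, and 2.73% were called lower on D105. *HSPH1* ranged from 61.7 to 84.0 CPM (median 65.1) on D55 and from 40.2 to 73.0 CPM (median 53.1) on D105. It was lower on D105 in 8 of 8 heifers although the ranges of the days overlap, and its log2 fold change was -0.39 (SE 0.11, edgeR quasi-likelihood FDR 0.0287). *DNAJB1* ranged from 68.5 to 104.7 CPM (median 77.6) on D55 and from 62.3 to 75.9 CPM (median 67.8) on D105. It too was lower in 8 of 8 heifers, with a log2 fold change of -0.26 (SE 0.075, FDR 0.0361).

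*HSPA8* was lower on D105 in 8 of 8 AI heifers, from a median of 1549 CPM to 1344 CPM, with a log2 fold change of -0.26 that was not called (SE 0.087, FDR 0.0745). *HSPB1* was lower in 7 of 8, from a median of 301 CPM to 245 CPM, with a log2 fold change of -0.27 that was not called (SE 0.12, FDR 0.190). With heifer as a block, which uses that both libraries come from the same heifer, both were called and 4 of 10 members fell, beside 17.1% of all genes called. The blocked values were -0.40 for *HSPH1* (FDR 0.00221), -0.25 for *DNAJB1* (FDR 0.00811), -0.26 for *HSPA8* (FDR 0.0205) and -0.28 for *HSPB1* (FDR 0.0241). The members' median log2 fold change was -0.19, beside -0.023 over all genes tested, and 9 of 10 were negative. *HSP90AA1* was the exception, at 0.10 (SE 0.075, FDR 0.445) and higher in 6 of 8 heifers. *HSPA5* was at -0.0052 (SE 0.085). The other members that were not called, each lower in 7 of 8 heifers, were *HSPA1A* (-0.21, FDR 0.285), *HSP90AB1* (-0.16, FDR 0.190), *HSPE1* (-0.15, FDR 0.236) and *HSPD1* (-0.14, FDR 0.299).

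In the pathway lists, *STIP1* (-0.36, SE 0.059, FDR 0.000579) and *FKBP4* (-0.33, SE 0.079, FDR 0.0119) fell in the AI group, as 2 of 14 HSP90 co-chaperones. Of 30 genes of the HSP70 and HSP40 system, 2 fell, namely *DNAJB4* (-0.52) and *HSPA4L* (-0.59), and *HSPB2* rose (1.55). The level of *HSPB2* was low, with a mean below 1 CPM over the 46 libraries. The subunits *CCT4* (-0.16) and *CCT6A* (-0.20) fell among 14 genes of TRiC/CCT and prefoldin. The mitochondrial exchange factor *GRPEL2* fell (-0.29) among 12, and the stress transcription factor *ATF4* rose (0.24) among 23 genes of the endoplasmic reticulum list. Cell type markers moved in the same comparison. Neutrophil markers rose in 6 of 7, their summed level ranging from 1084 to 2174 CPM on D55 and from 2323 to 5694 CPM on D105, without overlap. Of 4 eosinophil markers 2 rose, of 6 monocyte markers 1, and of 9 immediate early genes, which respond to handling, 2. No T, B or NK cell, platelet or red cell marker was called. Their part in the lower chaperone levels was not tested.

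In the IVP-Normal group, no member was called (0 of 10, beside 2.45% of all genes). An unadjusted p under 0.05 was found in 1 member, beside 13.3% of all genes. All libraries of this comparison belong to the set New. Leaving out heifer 633 turned the direction of 7 of the 10 members. *HSPA1A* had a log2 fold change of 1.64 (SE 0.74, FDR 0.353), while the D105 to D55 ratio in single heifers ranged from 0.493 to 16.0 with a median of 1.01. Without heifer 633 it was -0.20 (SE 0.18, FDR 0.863). *HSPH1* went from 0.83 (SE 0.61) to -0.36 (SE 0.30) and *DNAJB1* from 0.15 (SE 0.25) to -0.22 (SE 0.14), and neither was called with or without that heifer. *HSPA8* moved from 0.091 to -0.22 and *HSPB1* from 0.29 to -0.12. *HSP90AB1* moved from 0.23 to -0.21 and *HSPE1* from 0.16 to -0.16. *HSPA5* (0.094), *HSPD1* (-0.092) and *HSP90AA1* (0.46) kept their sign, at 0.11, -0.23 and 0.00011, and heifer 633 had a ratio of 1.03 for *HSPA5*. In 3 of the 6 heifers *HSPH1* was lower on D105, the lowest ratio being 0.389 in heifer 628.

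In the IVP-LOS group, no member was called either (0 of 10, beside 0.251% of all genes). An unadjusted p under 0.05 was found in 0 members, beside 12.6% of all genes. *HSPD1*, the mitochondrial HSP60, was lower on D105 in 8 of 9 heifers with a log2 fold change of -0.18 that was not called (SE 0.086, FDR 0.403). *HSP90AA1* was at 0.32 (SE 0.17, FDR 0.450), or at 0.18 (SE 0.18) without heifers 604 and 664. The other 8 members lay between -0.12 (*HSPA5*) and 0.21 (*HSP90AB1*). *HSPH1* was lower in 7 of 9 heifers and *HSPA8* in 7 of 9, while the ratio in heifer 604 was 3.005 for *HSPH1* and 2.22 for *HSPA8*. Counted over members, all 10 were lower on D105 in 4 heifers (AI 517 and 647, IVP-Normal 519 and 669) and 0 were lower in heifer 633, in which the median ratio was 2.66. Heifer 604 had 2 members lower and a median ratio of 2.19. The share of all genes lower on D105 in each heifer was not computed. The members share a library, so these counts are not counts of separate events.

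**Figure D3:**
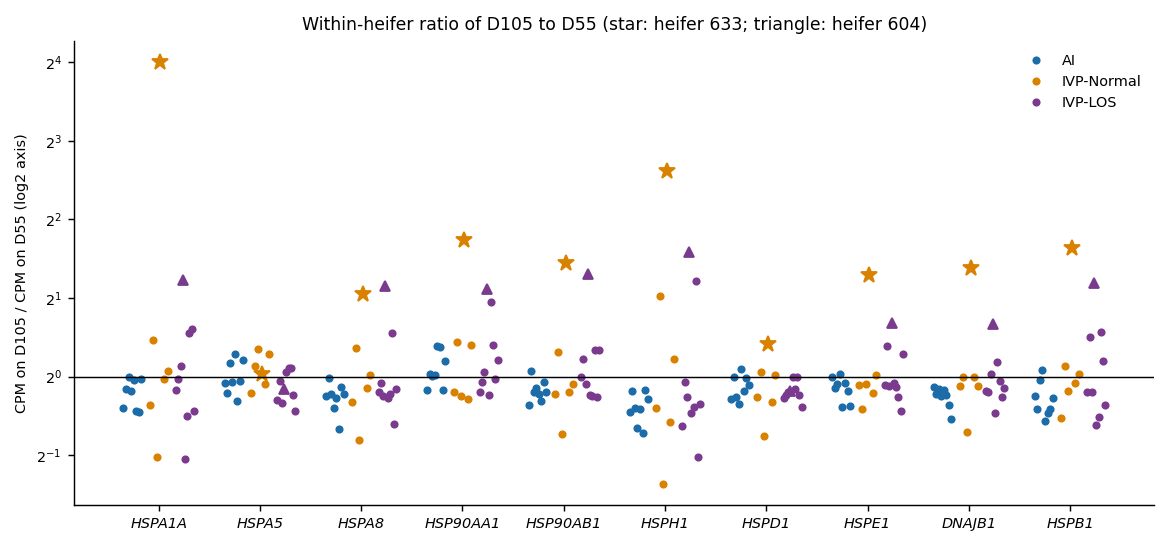
Ratio of D105 to D55 CPM within each heifer (log2 axis) for the 10 members, colored by treatment group, with a line at no change. The AI points lie below the line for *HSPH1* and *DNAJB1* in 8 of 8 heifers, and the star of heifer 633 reaches 16.0 for *HSPA1A* and 6.11 for *HSPH1*.

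Differences between groups in the day change were tested with interaction contrasts over all 46 libraries. No gene was called in any of the 3 contrasts (0% each by the quasi-likelihood test). DESeq2 called 1 gene, no member, in IVP-LOS minus AI. For IVP-Normal minus AI, 2 members had an unadjusted p under 0.05, beside 2.83% of all genes, or 466. They were *HSPA1A*, with a difference of 1.86 (SE 0.60), and *HSPH1*, with 1.22 (SE 0.53), and neither was called. The other 8 members lay between 0.049 (*HSPD1*) and 0.56 (*HSPB1*). Without heifer 633 the differences were 0.025 (SE 0.31) and 0.044 (SE 0.37), and with heifer as a block they were 0.56 (SE 0.48) and 0.61 (SE 0.45). For IVP-LOS minus AI, 0 members and 4.9% of all genes (808) had an unadjusted p under 0.05, and the 10 members lay between -0.12 (*HSPA5*) and 0.44 (*HSPH1*). Heifer 633 belongs to neither of these groups but was part of this fit. The SE of *HSPA1A* was 0.54 here, and 0.11 and 0.23 in the day comparisons of AI and IVP-LOS. Values of this contrast without heifer 633 are not given here. For IVP-LOS minus IVP-Normal, 1 member and 1.22% of all genes (201) had an unadjusted p under 0.05. It was *HSPA1A* at -1.51 (SE 0.58), which was 0.32 (SE 0.31) without heifer 633. The other 9 members lay between -0.79 (*HSPH1*) and -0.031 (*HSP90AB1*). A fall called in the AI group was not shown to differ from the change in the other groups.

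The comparison of treatment groups on each day asked whether the dams' leukocytes carry a sign of the fetus. No gene was called in any of the 6 group comparisons (0% each by the quasi-likelihood test), so the members are given with their unadjusted counts. Likelihood ratio tests in edgeR and DESeq2 called 1 to 43 genes, and no member, in each of these comparisons. On D55, where every library belongs to the set New, IVP-Normal against AI had 1 member at an unadjusted p under 0.05, beside 9.92% of all genes (1522). This was *HSPA5*, at 220 ± 17.6 CPM (SD, n = 6) against 253 ± 33.4 CPM (SD, n = 8), a log2 difference of -0.21 (SE 0.092, FDR 0.498). The other 9 members lay between -0.13 (*HSPB1*) and 0.22 (*HSP90AB1*). IVP-LOS against AI had 2, beside 7.74% (1179), with *HSPB1* at -0.29 (SE 0.10, FDR 0.636) and *HSPD1* at 0.18 (SE 0.078, FDR 0.637). *HSPB1* was at 235 ± 39.9 CPM (SD, n = 9) in IVP-LOS heifers and 290 ± 38.3 CPM (SD, n = 8) in AI heifers. The other 8 members lay between -0.076 (*HSPA1A*) and 0.030 (*HSP90AA1*). IVP-LOS against IVP-Normal had 0, beside 5.19% (802), and its 10 members lay between -0.22 (*HSP90AB1*) and 0.19 (*HSPA5*).

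On D105, IVP-Normal against AI had 5 members at an unadjusted p under 0.05, beside 9.57% of all genes (1477), and a members' median log2 difference of 0.47, beside 0.0077 over all genes. *HSPA1A* ranged from 67.7 to 1375 CPM (median 92.9) in IVP-Normal heifers and from 69.8 to 102.4 CPM (median 82.1) in AI heifers, a log2 difference of 1.82 (SE 0.63, FDR 0.514). Without heifer 633 it was -0.016 (SE 0.12, FDR 0.980). *HSPH1* went from 1.34 (SE 0.50) to 0.092 (SE 0.14) and *HSP90AB1* from 0.64 (SE 0.26) to 0.18 (SE 0.11). *HSPA8* went from 0.48 (SE 0.21) to 0.15 (SE 0.10) and *DNAJB1* from 0.45 (SE 0.21) to 0.10 (SE 0.066). The other 5 members lay between -0.092 (*HSPA5*) and 0.51 (*HSP90AA1*), and without that heifer between -0.11 (*HSPA5*) and 0.12 (*HSPE1*). Once that heifer was left out, the highest IVP-Normal *HSPA1A* value was 98.7 CPM, inside the AI range.

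IVP-LOS against AI on D105 had 1 member at an unadjusted p under 0.05, beside 5.76% of all genes (880). It was *HSP90AB1*, with a log2 difference of 0.37 (SE 0.17, FDR 0.754), or 0.14 (SE 0.10) without heifers 604 and 664, and the other 9 members lay between -0.14 (*HSPA5*) and 0.37 (*HSPH1*). Its level was 858 ± 314 CPM (SD, n = 9) against 663 ± 77.0 CPM (SD, n = 8). IVP-LOS against IVP-Normal on D105 also had 1, beside 3.24% (501), namely *HSPA1A* at -1.52 (SE 0.64, FDR 0.999), which was 0.30 (SE 0.29) without heifer 633, and the other 9 members lay between -0.95 (*HSPH1*) and -0.035 (*HSPA5*). The D105 differences of *HSPA1A* and *HSPH1* between IVP-Normal and the other groups thus rested on 1 library.

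Heifers 604 and 664 were compared with the other heifers as the pair that carried the heaviest fetuses. The study's text focuses on this pair partly because it stood apart when these same transcriptomes were clustered. The pair was therefore chosen in part on the data tested here, and the p-values do not allow for that choice. The calls of this comparison are thus not a separate test of fetal weight. On D55 no member was called (0 of 10, beside 0.0179% of all genes). Beside 4.72% of all genes, 1 member had an unadjusted p under 0.05. That was *HSPB1*, at 212 CPM in 604 and 180 CPM in 664, the latter the lowest of all heifers (log2 difference -0.46, SE 0.18, FDR 0.947), and the other 9 members lay between -0.38 (*HSPH1*) and 0.15 (*HSPD1*). On D105, 1 member of 10 was called, beside 21.1% of all genes. *HSPA5* was lower in the pair, at 190 CPM in 604 and 166 CPM in 664, where all 23 heifers had a median of 227 CPM and a highest value of 365 CPM. Heifer 519 was at 179 CPM, so the pair overlaps with the others. Its log2 difference was -0.49 (SE 0.16, FDR 0.0385). It was -0.58 (FDR 0.122) without 604 and -0.40 (FDR 0.294) without 664, and so not called when the group was 1 heifer. It was -0.50 (FDR 0.0507) with no filter on low counts, and not called.

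Heifer 633 is among the 21 heifers of the other side, and its D105 library was the highest in 9 of the 10 members. Leaving out heifer 633 was decided after the data were seen, so the calls of that fit depend on that choice. Without it, the SE of *HSPA8* went from 0.30 to 0.19 and that of *HSPH1* from 0.72 to 0.29, and 5 of 10 members were called, beside 25.4% of all genes. *HSP90AB1* was then higher in the pair, with 1613 CPM in 604 and 1003 CPM in 664 (log2 difference 0.85, SE 0.16, FDR 0.00117). *HSPE1* was higher too, at 70.3 and 61.0 CPM against a D105 median of 42.8 CPM (0.60, SE 0.13, FDR 0.00302). *HSPA8* (0.55, SE 0.19, FDR 0.0361) and *DNAJB1* (0.32, SE 0.12, FDR 0.0469) were also called higher, and *HSPA5* lower (-0.49, FDR 0.0382). Within the set BACKUP, which leaves out all IVP-Normal heifers, 4 of 10 were called, beside 29.9% of all genes. Those were *HSPA5*, *HSPA8*, *HSP90AB1* and *HSPE1*.

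The 2 heifers did not match each other in every member. *HSP90AB1* and *HSPE1* were high in both and *HSPA5* was low in both. *HSPA8* was at 2693 CPM in 604 and 1330 CPM in 664, near the D105 median of 1356 CPM, and *DNAJB1* was at 113.5 and 68.9 CPM, around a median of 70.7 CPM. In *HSPA1A* and *HSPB1* they lay at opposite ends. *HSPA1A* was at 218 CPM in 604 and at 50.1 CPM in 664, the lowest of all D105 libraries, and *HSPB1* was at 483 and 140 CPM, the latter again the lowest. With all 23 heifers the 9 members that were not called lay between -0.20 (*HSPA1A*, SE 0.96, FDR 0.896) and 0.69 (*HSP90AB1*, SE 0.34, FDR 0.135).

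**Figure D4:**
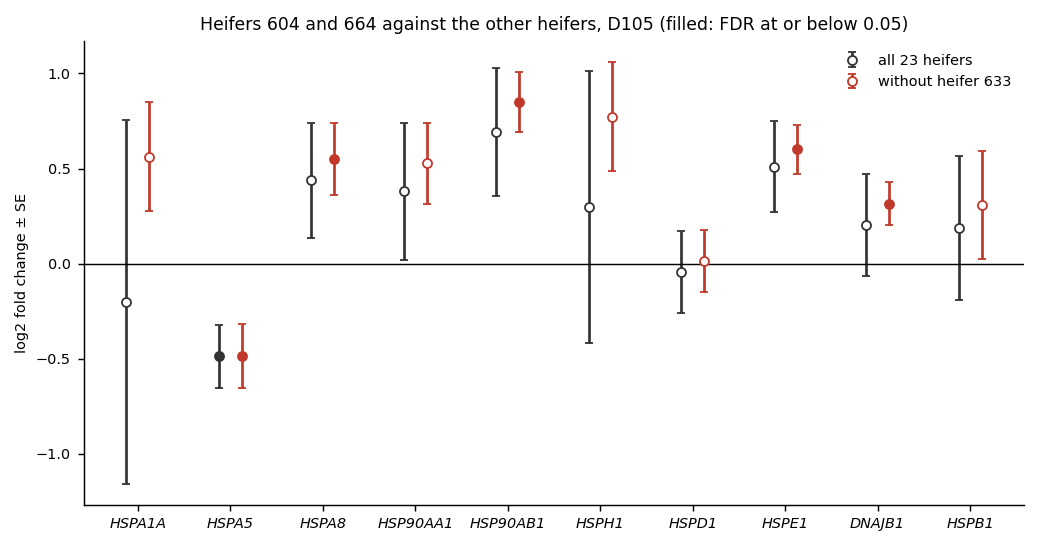
Log2 difference of heifers 604 and 664 from the other heifers on D105 for each member, with bars of 1 SE, from the fit with all 23 heifers (black) and without heifer 633 (red), filled where called. *HSPA5* is called in both fits at -0.49, and *HSPA8*, *HSP90AB1*, *HSPE1* and *DNAJB1* are called only in the fit without heifer 633. That fit was added after the data were seen.

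Of the 23 other genes of the endoplasmic reticulum list, 8 were lower and 2 higher in 604 and 664 on D105, with a median log2 difference of -0.40, beside -0.022 over all genes. Over all genes tested 9.48% were called lower and 11.6% higher in this comparison, which is the background for each list. *HYOU1*, an exchange factor for HSPA5, was at -0.84 (SE 0.18, FDR 0.00436) and the stress sensor *ERN1* at -1.54 (SE 0.37, FDR 0.00755). *SYVN1*, a ubiquitin ligase of the pathway, was at 0.73 (FDR 0.0172) and *ATF4* at 0.63 (FDR 0.0304). Of 14 genes of TRiC/CCT and prefoldin, 4 were higher, and each was a prefoldin subunit, *PFDN5* at 0.70 (FDR 0.00337) and *PFDN2* at 0.55 (FDR 0.00812) first. In the HSP70 and HSP40 system 3 of 31 were higher and 2 lower, a smaller share than the 21.1% called over all genes, with *DNAJB6* at 0.59 (FDR 0.00611) and *BAG5* at -0.88 (FDR 0.0106) among them. Of the 14 HSP90 co-chaperones only *NUDC* was called (0.43, FDR 0.0425). The mitochondrial list had 4 of 12 higher and 1 lower, with *GRPEL1* at 0.41 and *CLPX* at -0.37.

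Cell type markers differed at the same time. Neutrophil markers were lower in 6 of 7 (median log2 difference -3.12), with summed levels of 690 and 641 CPM in the pair against 1227 to 14170 CPM in the other D105 libraries. Monocyte markers were lower in 4 of 7, summing to 228 and 398 CPM against 548 to 6085 CPM. Platelet markers were higher in 4 of 5, with sums of 2621 CPM in 604 but 336 CPM in 664, the latter inside the range of 125.8 to 725 CPM of the others. B cell markers were higher in 3 of 6, summing to 3930 and 5134 CPM against 1267 to 4370 CPM. Of 9 immediate early genes 1 was higher and 2 were lower (median log2 difference -1.48), with sums of 871 and 939 CPM against 850 to 5880 CPM. Of 8 T cell markers 1 was lower, of 4 eosinophil markers 1 was lower, of 3 red cell markers tested 1 was higher, and of 6 NK cell markers 0 were called. The share of reads on no gene was 38.6% and 36.7% in the pair and at most 31.1% in the other D105 libraries. The part of these differences in the chaperone results was not tested.

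Heifers did not keep their place between days in most members. The correlation of D55 with D105 was computed over 23 heifers on log2(CPM + 1) after subtraction of each group's mean, for 10 members. *HSPD1* had a Pearson r of 0.578 (permutation p = 0.0139, adjusted 0.0693) and a Spearman rho of 0.691 (permutation p = 0.00062, adjusted 0.0062). Its r was 0.589 without the 2 heifers farthest from the D55 median, 0.577 within IVP-Normal and 0.656 within the AI and IVP-LOS heifers, whose D105 libraries form the set BACKUP. Without heifer 633 no rho passed the adjustment. *HSPA5* had an r of 0.578 (permutation p = 0.00716, adjusted 0.0693) and a rho of 0.439 (permutation p = 0.0341, adjusted 0.171). Its r was 0.325 without heifers 637 and 648, the farthest from the D55 median, so it rests in part on them. The other 8 members had r between -0.13 and 0.12, with *HSPA1A* at -0.033.

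Within a day, however, some pairs of members varied together, while most pairs did not pass the adjustment on either day. The share among pairs of other genes was not computed, so these counts cannot be called particular to the members. On D55, 13 of 45 pairs of members had a Pearson r that passed the adjustment, all positive, and 6 had a rho that did. The closest was *HSPA8* with *HSPH1*, with r 0.969 and rho 0.954 (both with permutation p = 1e-05, the smallest that 100000 permutations can give, adjusted to 0.00015 and 0.000225). It was 0.955 without the 2 farthest heifers (560 and 628), 0.983 within IVP-Normal and 0.955 within the other heifers. *HSP90AA1* with *HSPA8* had r 0.921 and rho 0.919 (permutation p = 1e-05 for both, adjusted to 0.00015 and 0.000225), and r was 0.861 without the same heifers.

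On D105, 22 of 45 pairs passed by Pearson r, all positive, and 11 by rho. Without heifer 633 only 6 passed by r and 3 by rho. *HSPA8* with *HSPH1* again had the closest relation, with r 0.957 and rho 0.928 (permutation p = 1e-05 for both, adjusted to 0.00045 for each). It was 0.917 without heifers 604 and 633, the farthest from the median, 0.997 within IVP-Normal and 0.966 within the other heifers. *HSPA1A* with *HSPA8* had r 0.807 and rho 0.545 (permutation p = 0.00355 and 0.0182, adjusted to 0.0133 and 0.0632). It dropped to 0.422 without those 2 heifers, so it rests on them.

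**Figure D5:**
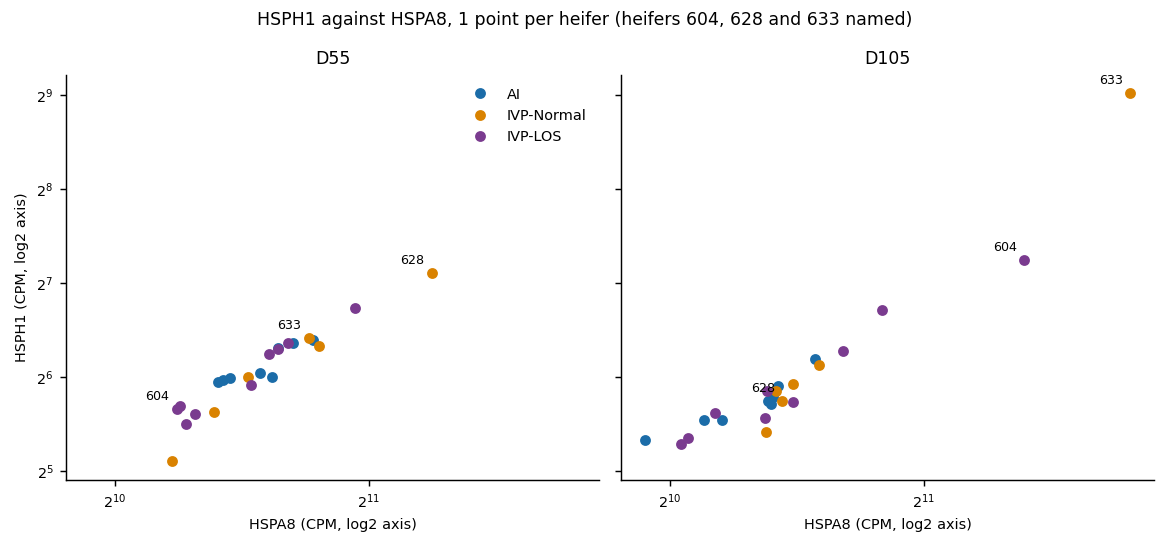
*HSPH1* against *HSPA8* in CPM (log2 axes), 1 point per heifer on each day, colored by treatment group. The points follow 1 line on both days (r 0.969 on D55 and 0.957 on D105 after subtraction of group means), with heifer 628 at the upper end on D55 and heifers 604 and 633 at the upper end on D105.

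The genes most like each member were read from log2(CPM + 1) over the 46 libraries, as a description of 23 heifers sampled on 2 days. *HSPA1A* was closest to *HSPA6* (r 0.919), *HSPA8* to *HSPH1* (0.955) and *HSP90AB1* to *CACYBP* (0.935). *DNAJB1* was closest to *STIP1* (0.871), *HSPD1* to the TRiC subunit *CCT3* (0.913), *HSPE1* to *CACYBP* (0.894) and *HSPA5* to *HYOU1* (0.838). *HSPB1* was closest to *CDO1* (0.788) and *HSP90AA1* to *GPBP1* (0.786). Next were *AHSA2* and *HSPH1* for *HSPA1A*, *STIP1* and *AHSA2* for both *HSPA8* and *HSPH1*, *FKBP4* and *AHSA1* for *HSP90AB1*, and *HSPA6* and *AHSA1* for *DNAJB1*. For *HSPD1* they were *CCT2* and *HSPA9*, for *HSPE1* *CCT8* and *RANBP1*, for *HSPB1* *HSPA1A* and *AHSA2*, and for *HSP90AA1* *FKBP4* and *HSPH1*. Over the 45 libraries without the D105 library of heifer 633, *HSPA6* remained first for *HSPA1A* (0.746), *HSPH1* for *HSPA8* (0.953), *CACYBP* for *HSP90AB1* (0.883), *STIP1* for *DNAJB1* (0.755) and *CDO1* for *HSPB1* (0.701). The first place changed for *HSPA5* (*CREB3L2*, 0.854), *HSPD1* (*CAPRIN1*, 0.920), *HSPE1* (*HNRNPAB*, 0.866) and *HSP90AA1* (*DENND5A*, 0.753). *HSPD1* and *HSPE1*, neighbours in the RefSeq gene table, were not among each other's 3 closest genes in either set of libraries.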

How the data were processed

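Leukocyte RNA was sequenced at BGI (DNBSEQ-G400, paired-end). The authors, by their methods, trimmed low-quality reads, dropped short ones, mapped reads to ARS-UCD1.2 with HISAT2 2.1.0 and assigned them to RefSeq genes with HTSeq (union mode). What they deposited is a table of counts, not normalized, and 5 summary lines were left out (reads on no gene are given as a share of those plus reads on genes). The library kit's strand setting was not given in the sources used here, so antisense overlaps cannot be told apart.

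Counts were tested in R 4.3.3 with edgeR 4.0.16 (TMM, filterByExpr with a minimum count of 10, quasi-likelihood F-test, Benjamini-Hochberg over all genes tested). A gene was called when its FDR did not exceed 0.05, and the SE is the absolute log2 fold change divided by the square root of F. Only the compared groups entered a fit, except in the 3 interaction contrasts, which were fitted on all 46 libraries with the third group included. There were 14 comparisons in all. The script was tested on simulated counts. Correlations used two-sided permutation of heifers within treatment groups with 100000 permutations, and adjustment over 10 members or 45 pairs. No 2 libraries held identical counts.

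The D55 and D105 libraries of a number come from the same heifer, which is where the pairing comes from, and their deviations from the group means correlated with r between 0.288 and 0.842. Heifer as a block was therefore tried beside the fit without it.

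The members and gene lists were chosen with earlier results of these data known. The genes named are the 10 members (in each comparison by value or by the range of the rest), at most 2 genes per list and direction by smallest FDR, and up to 3 genes most like each member (some are not reported here). Alternatives were likelihood ratio tests (edgeR and DESeq2 1.42.0), upper-quartile normalization, no filter, the block, single heifers left out and the set BACKUP alone. Leaving out heifers 633 and 637 was added after the data were seen. The Ensembl count table was not used. Gene neighbours are from the RefSeq table of ARS-UCD2.0, not the counts' build, so no coordinates or sequences are given.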

Additional observations from a re-analysis of the deposited data

Results flagged for a closer look

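In each group of heifers and day (60 groups of values over the 10 members), a library was picked out when its gap to the nearest other was too large a part of the group's range (Dixon's test at 95%). By chance about 1 in 20 groups is picked out, and 15 were. Of these, 8 were the D105 library of heifer 633 within the IVP-Normal group, with *HSPA1A* at 1375 CPM (the next heifer at 98.7), *HSPA8* at 3597 CPM (1540), *HSP90AA1* at 1842 CPM (627), *HSP90AB1* at 2410 CPM (936), *HSPH1* at 521 CPM (70.0), *HSPE1* at 100.4 CPM (56.3), *DNAJB1* at 193 CPM (82.0) and *HSPB1* at 688 CPM (324). The members share libraries, so these are not 8 separate events.

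The D105 library of heifer 604 was picked out within the IVP-LOS group in 3 members, *HSPA8* at 2693 CPM (1828), *HSP90AB1* at 1613 CPM (1003) and *DNAJB1* at 113.5 CPM (86.6). The D105 library of heifer 637 was picked out for *HSPA5* at 365 CPM (229), and its summed neutrophil markers were 14170 CPM, the highest of all. On D55, heifer 616 was picked out for *HSP90AA1* at 665 CPM (548) and *HSP90AB1* at 977 CPM (791), and heifer 628 for *DNAJB1* at 122.4 CPM (82.2).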

How the results depend on the processing

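The calls on chaperone genes that depended on processing concerned the AI day change and the heifers 604 and 664. A part of the recomputed fold changes of single members, 382, was counted. It covers the day changes of AI and IVP-Normal, IVP-Normal against AI on D105, and heifers 604 and 664 on D105. Elsewhere it covers *HSPA1A* and *HSPH1* in D105 and interaction comparisons with IVP-Normal, and members with a small unadjusted p. Of these 382, 342 kept their direction and side of the threshold, 12 gained a call, 3 lost it and 25 turned direction. The cause was not tested unless a sentence names it.

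With heifer as a block, which is the paired analysis, 2603 genes and 4 members were called in the AI group, *HSPA5* turned to 0.0019, and 838 genes were called in IVP-Normal and 162 in IVP-LOS. The block changed no other member call. *HSPA8* in the AI group was also called by DESeq2 and by upper-quartile normalization. The edgeR likelihood ratio test and DESeq2 called 613 and 748 genes for the day change of IVP-Normal, and 227 and 336 for IVP-LOS. They called 3 and 16 for IVP-Normal against AI on D55, 1 and 1 for IVP-LOS against AI, and 1 and 3 for IVP-LOS against IVP-Normal. On D105 these numbers were 3 and 3, 11 and 43, and 4 and 11. For heifers 604 and 664 on D55 they were 5 and 8, and DESeq2 called 1 gene in the interaction of IVP-LOS and AI. Without the filter 1 gene was called in IVP-LOS against IVP-Normal on D55 and 6 in heifers 604 and 664 on D55.

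Without heifer 633, 150 genes were called in the IVP-Normal day change, and members turned to -0.20 (*HSPA1A*), -0.22 (*HSPA8*), -0.21 (*HSP90AB1*), -0.36 (*HSPH1*), -0.16 (*HSPE1*), -0.22 (*DNAJB1*) and -0.12 (*HSPB1*). *HSPA1A* turned to -0.016 in IVP-Normal against AI on D105. *HSPA1A* and *HSPH1* turned to 0.30 and 0.28 in IVP-LOS against IVP-Normal on D105 and to 0.32 and 0.40 in the matching interaction. IVP-LOS against IVP-Normal gained 1 called gene on each day. Correlated pairs on D105 dropped to 6, and to 8 without heifers 604 and 664. Without those 2 heifers the IVP-LOS day change had 12 called genes, and without heifer 637 it had 24, while IVP-LOS against AI on D105 had 10.

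For heifers 604 and 664 on D105, members called were 2 by DESeq2, 0 without the filter, 4 within BACKUP and 5 without heifer 633. *HSPA1A* turned to 0.57, to 0.54 within BACKUP and to 0.56 without heifer 633, the first by DESeq2. By default DESeq2 replaces counts it marks as outliers, and the part of this in the first value was not tested. *HSPD1* turned to 0.0093 within BACKUP and to 0.013 without heifer 633. With 1 of the 2 left out, the other is assumed to vary like the remaining heifers. Genes called then ranged from 567 to 725 with 0 members on D105, and from 0 to 9 on D55. Without 604 and without 664, respectively, the values were -1.62 and 0.50 for *HSPA1A*, -0.15 and 0.86 for *HSPA8*, -0.062 and 0.72 for *HSP90AA1*, -0.77 and 0.90 for *HSPH1*, 0.034 and -0.12 for *HSPD1*, -0.20 and 0.52 for *DNAJB1*, and -0.96 and 0.82 for *HSPB1*. The alternative with the Ensembl count table was not run, because its identifiers could not be paired with symbols here. All 10 members passed the filter on low counts in every comparison.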
